A study of Mus musculus with 2 samples.

Results

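The genes described here are the 41 members of the ephrin, Slit and netrin guidance families in total RNA of the mouse neural tube on embryonic day 13.5. They were chosen by symbol alone, as every gene row that mapped to a named ligand or receptor of these families, and make up 41 of the 43346 mouse genes in the tables. The set holds 9 EphA and 5 EphB receptors, 5 ephrin-A and 3 ephrin-B ligands, 3 Slits, 4 Robo receptors, 4 netrins, 2 netrin-G proteins, 4 Unc5 receptors and the pair Dcc and Neo1. The tissue came from embryos of the strain B6NCrl, with males and females pooled, and was sequenced in 2 libraries given as biological replicates 1 and 2 of 1 group. There was no treatment, mutant or second stage, so each result is a level, a proportion or a difference between the libraries. Each library started from 10 ng of RNA above 200 nt with spike-in RNA added. The labels give each library its own biosample and both the same donor entry, and do not say how many embryos went into each.

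Growing axons in the embryonic spinal cord and brainstem steer by cues on cells and in the matrix. Ephrins are ligands bound to the cell surface, those of class A by a lipid anchor and those of class B by a transmembrane segment, and their Eph receptors are tyrosine kinases that mostly trigger withdrawal of the growth cone. Slits are secreted repellents read by Robo receptors, and they keep axons that have crossed the ventral midline from crossing back. Netrins are secreted proteins related to laminin that attract axons through Dcc and repel them through Unc5 receptors, and Ntn1 made in the floor plate and by ventricular zone progenitors is known for drawing commissural axons ventrally.

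Levels are given in TPM, a relative transcript abundance that is corrected for transcript length, as mean ± SD of the 2 libraries (n = 2 throughout). Replicate 1 had 34125110 estimated reads and replicate 2 had 22311849, of which 70787 and 47924 fell on the 41 members. Markers of neural tissue were present, with all 8 neuron markers and 7 of 8 progenitor markers reached 1 TPM in both libraries, and none of 8 forebrain markers. Other tissue was present too, with all 8 endothelial, all 10 sensory ganglion, all 8 mesenchymal and 7 of 8 skeletal muscle markers at that level. Summed over its 8 genes, the muscle list came to 124.4 and 217.1 TPM in replicates 1 and 2, and the epidermis list to 13.0 and 29.1 TPM. In whole tissue, a low level may mean few cells of a type or little RNA in each cell, which cannot be told apart.

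Nearly the whole set was expressed. At 1 TPM or more in both libraries, 39 of 41 members (95.1%) were detected, where 61.6% of the 21558 protein-coding genes were. The exceptions were Epha1, a receptor best known from epithelia, at 0.17 and 0.46 TPM, and Ntn4, a netrin of basement membranes, at 0.69 and 0.60 TPM. Levels were moderate: the median member stood at 14.5 TPM, the median detected protein-coding gene at 18.6 TPM, and 20 members lay above that gene. The member median takes in Epha1 and Ntn4, and the median over all 21558 protein-coding genes, detected or not, was 4.90 TPM. In both libraries 30 members reached 5 TPM, 25 reached 10 TPM, 18 reached 20 TPM and 6 reached 40 TPM.

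The 6 members above 40 TPM came from all the signalling systems except the netrins. In order they were the ligand Efna3, the receptor Robo2, the ligand Efnb3, the receptor Robo3, the ligand Efna5 and the ligand Slit2. Over the full order of 41, the ranges of the 2 libraries overlapped for 23 of 40 neighbouring pairs. Overlap does not show that such neighbours were alike, since both genes were measured in the same libraries. Efna5, for example, overlapped with Slit2 but was higher in each library, at 44.3 and 47.7 TPM against 42.4 and 47.1 TPM. The longest stretch of neighbours with overlapping ranges ran from Slit3 at 26.5 TPM down to Efnb2 at 19.3 TPM. It took in Efna2, Slit1, Ntn1, Dcc, Ephb1, Neo1, Epha4 and Ephb6. Over all pairs of members, neighbours included, 788 of 820 (96.1%) were in the same order in both libraries.

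**Figure D1:**
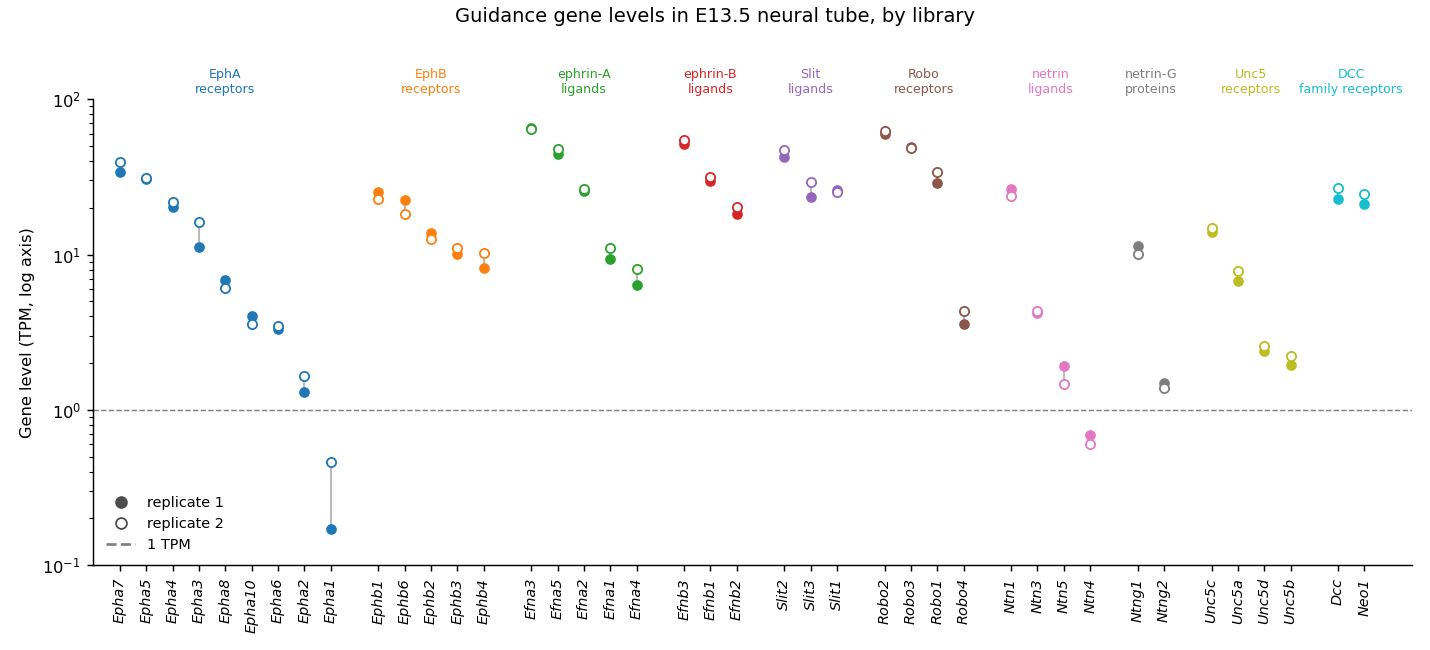
Gene level in TPM on a log axis for each of the 41 members, grouped by family and sorted by mean within it; filled points are replicate 1, open points replicate 2, and the dashed line is 1 TPM. Points of 1 gene lie close together beside the distance between genes, with Epha3 and Epha1 the widest apart, and only Epha1 and Ntn4 lie under the line.

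Among the EphA receptors, Epha7, Epha5 and Epha4 made up most of the RNA. Epha7, which guides axons and shapes dendrites (ENSMUSG00000028289.8, chromosome 4, 28813131 to 28967499, GRCm38), had 33.8 and 39.4 TPM. Epha5, a receptor used in topographic maps, had 30.8 and 31.2 TPM. Epha4, which keeps limb motor axons and spinal interneuron axons on their side (ENSMUSG00000026235.10, chromosome 1, 77367185 to 77515088), had 20.2 and 21.9 TPM. Their shares of all EphA TPM were 31.1 ± 1.1%, 26.4 ± 1.7% and 17.9 ± 0.30%. Epha3, known from axial motor axons, had 11.3 and 16.2 TPM, the largest ratio between the libraries among EphA receptors above 1 TPM. The remaining members were low. Epha8 had 6.82 and 6.06 TPM, Epha10, whose kinase domain is inactive, 4.01 and 3.57 TPM, Epha6 3.30 and 3.49 TPM, and Epha2 1.31 and 1.66 TPM.

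The 5 EphB receptors lay closer together. Ephb1, which turns retinal axons away at the optic chiasm, had 25.2 and 22.8 TPM. Ephb6, the kinase-inactive member, had 22.4 and 18.3 TPM. Ephb2 and Ephb3, which act together in forming commissures, had 13.8 and 12.7 TPM and 10.1 and 11.1 TPM. Ephb4, the receptor of venous endothelium, was the lowest at 8.14 and 10.3 TPM. Ephb1 exceeded Ephb4 by a ratio of 2.66 ± 0.614, and the ranges of Ephb6 and its lower neighbours Ephb2 and Ephb3 did not overlap. EphA receptors took 60.3 ± 2.7% of all Eph receptor TPM, 58.4% in one library and 62.2% in the other.

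The ligands outweighed the receptors. The 8 ephrins summed to 257.0 ± 9.55 TPM and the 14 Eph receptors to 195.2 ± 5.54 TPM, a difference seen in both libraries (250.2 against 191.3 TPM and 263.7 against 199.1 TPM). Efna3 was the highest of all 41 members, at 65.2 and 63.9 TPM (ENSMUSG00000028039.7, chromosome 3, 89313899 to 89322965). Efna5, the repellent that patterns retinal and other topographic maps (ENSMUSG00000048915.8, chromosome 17, 62604184 to 62881317), had 44.3 and 47.7 TPM. Efna2 had 25.6 and 26.5 TPM. Efna1, known from blood vessels, had 9.37 and 11.01 TPM and Efna4 6.39 and 8.13 TPM. Efna3, Efna4 and Efna1 sit side by side on the minus strand of chromosome 3, with Efna4 from 89333390 to 89338028 and Efna1 from 89271733 to 89281142. Efna3 exceeded Efna4 by a ratio of 9.04 ± 1.66 despite that closeness.

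Within class B, Efnb3, the midline ligand that keeps corticospinal and interneuron axons from recrossing the cord (ENSMUSG00000003934.5, chromosome 11, 69554092 to 69560205), had 51.1 and 54.8 TPM. Efnb1, an X-linked ligand of cell sorting boundaries, had 29.9 and 31.5 TPM. Efnb2, the ligand of arterial endothelium and of parts of the neural tube, had 18.3 and 20.2 TPM. Efnb3 took 51.5 ± 0.013% of ephrin-B TPM, the smallest spread of any share measured within a family, and exceeded Efnb2 by a ratio of 2.75 ± 0.0545. Class A ligands held 60.0 ± 0.47% of ephrin TPM. Of 25 listed partners of Eph and ephrin signalling, all 25 were detected, and their median level was 19.5 TPM. The highest were the GTPase gene Rhoa at 244.1 ± 17.3 TPM and the ephrin-B adaptor gene Sdcbp at 243.2 ± 12.3 TPM, and the lowest was the kinase gene Abl2 at 4.33 ± 0.438 TPM. Ngef, which encodes ephexin, the exchange factor that EphA receptors act through, had 6.74 and 6.42 TPM.

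All 3 Slits and all 4 Robo receptors were detected, with 96.97 ± 7.14 TPM summed over the ligands and 145.4 ± 5.54 TPM over the receptors. Slit2, made by the floor plate and by motor neurons (ENSMUSG00000031558.11, chromosome 5, 47983138 to 48307733), had 42.4 and 47.1 TPM, which was 46.2 ± 0.050% of Slit TPM. Slit3 had 23.4 and 29.5 TPM and Slit1 26.1 and 25.4 TPM, and the ranges of these 2 overlapped. Robo2, which places axons in lateral tracts (ENSMUSG00000052516.13, chromosome 16, 73891839 to 74411825), had 59.5 and 62.5 TPM. Robo3, the receptor of commissural neurons that lets their axons cross the midline (ENSMUSG00000032128.10, chromosome 9, 37415669 to 37433246), had 49.4 and 48.7 TPM. Robo1 (ENSMUSG00000022883.10, chromosome 16, 72308306 to 73046095) had 29.0 and 33.8 TPM, and Robo4, the Robo of endothelium, 3.58 and 4.36 TPM. Robo3 thus took 33.8 ± 1.6% of Robo TPM.

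Robo4 and Robo3 lie next to each other on opposite strands of chromosome 9, Robo4 ending at 37415115. Robo3 was the higher of the pair by a ratio of 12.5 ± 1.86. Alongside Robo4 the 8 endothelial markers summed to 232.1 and 240.5 TPM, led by Cldn5 at 71.3 ± 2.52 TPM and Egfl7 at 60.8 ± 2.51 TPM, with Tek the lowest at 7.09 ± 0.424 TPM. For Robo3, 8 of 9 markers of commissural interneurons were detected, at a median level of 3.22 TPM over the list. Among the higher ones were Barhl1 at 6.01 ± 0.495 TPM and Cntn2 at 70.5 ± 8.53 TPM, while Atoh1, the factor of their progenitors, had 0.62 and 0.81 TPM. The list is not particular to these cells, since its highest gene, Pou4f1 at 117.8 ± 3.85 TPM, is also a gene of sensory ganglia. Of 24 listed Slit and Robo partners, 23 were detected, at a median level of 31.4 TPM. The highest were the GTPase gene Cdc42 at 661.1 ± 11.3 TPM and the ubiquitin ligase adaptor gene Ndfip1, known for sorting Robo1 to degradation, at 642.3 ± 14.7 TPM. The lowest, and the one not detected, was Prrg4 at 0.27 and 0.34 TPM. Nell2, a secreted ligand of Robo3, had 123.5 and 138.0 TPM, above each of the Slits.

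Netrin ligands were dominated by 1 gene. Ntn1 (ENSMUSG00000020902.8, chromosome 11, 68209364 to 68400823) had 26.4 and 23.8 TPM, which was 79.1 ± 0.51% of the netrin sum. Ntn3, known from sensory ganglia, had 4.21 and 4.36 TPM, Ntn5, known from boundary cap cells at the motor exit points, 1.92 and 1.46 TPM, and Ntn4 stayed under 1 TPM. Ntn1 exceeded Ntn3 by a ratio of 5.86 ± 0.576. Ntn3 shares 89 exon bases on the same strand with Tbc1d24, which had 9.81 and 11.3 TPM, so part of its level is uncertain. Floor plate markers were detected for 6 of 8 genes, with Spon1 at 67.3 ± 5.69 TPM and Sulf1 at 29.2 ± 2.19 TPM, and Lmx1a the lowest at 0.64 and 0.94 TPM. The floor plate factor Foxa2 had 1.49 and 1.62 TPM and Shh 1.48 and 1.62 TPM.

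The netrin-G proteins bind partners of their own, not Dcc, and are held on the membrane by a lipid anchor. Ntng1 had 11.3 and 10.0 TPM and Ntng2 1.49 and 1.39 TPM, a ratio of 7.39 ± 0.261. Of Ntng1 TPM, 31.8% and 32.7% went to Ntng1-201, a coding model of 327 nt, on only 18.5 and 10.7 reads. Ntng2 shares 558 exon bases with 6530402F18Rik on the same strand, at 1.07 TPM in each library. Lrrc4c and Lrrc4, which encode their NGL partners, had 17.2 ± 1.00 and 4.51 ± 0.0990 TPM.

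On the receptor side, Dcc and Neo1 stood close to each other. Dcc, the attractive receptor (ENSMUSG00000060534.11, chromosome 18, 71253634 to 72351069), had 22.69 and 27.01 TPM. Neo1, its relative that also reads repulsive guidance molecules (ENSMUSG00000032340.7, chromosome 9, 58874687 to 59036441), had 21.03 and 24.45 TPM. Neo1 took 47.8 ± 0.42% of the pair's TPM and both genes were higher in replicate 2, so their ratio of 1.09 ± 0.0182 varied less than either level. Among the repulsive receptors, Unc5c led with 14.1 and 14.9 TPM, or 55.0 ± 1.3% of Unc5 TPM. Unc5a had 6.75 and 7.82 TPM, Unc5d 2.38 and 2.58 TPM, and Unc5b, also a vascular receptor, 1.95 and 2.22 TPM. All 25 listed netrin partners were detected, and their median level was 17.2 TPM. Maged1, which binds Unc5a, was the highest at 778.5 ± 27.9 TPM, followed by the lipid transfer gene Pitpna at 94.1 ± 4.00 TPM, and Dscam, another netrin receptor, the lowest at 3.67 ± 0.318 TPM. Rgmb and Rgma, ligands of Neo1, had 65.0 ± 2.27 and 28.4 ± 3.71 TPM.

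A gene's TPM is the sum over its annotated transcripts, some of which encode no complete protein. Of the 41 members 11 had a single transcript and 30 had several. The median member held 95.8% of its TPM in complete protein-coding transcripts, but in 5 members that share stayed under 50% in both libraries. These were Epha10, Slit2, Slit3, Robo2 and Unc5c. In Epha10 the leading Epha10-202 was left out as incomplete, though it has 2585 annotated coding bases, beside 876 in the complete coding Epha10-201. Robo2 would leave this group if Robo2-201, at 8.38% and 10.14% of its TPM, were counted as complete coding, as described below. The Robo sum that follows leaves out that transcript too. Kept to complete coding transcripts, a choice made after the data were seen, the Slits summed to 43.4 ± 0.0354 TPM and the Robo receptors to 93.3 ± 4.91 TPM. The EphA receptors summed to 75.3 ± 18.1 TPM beside 117.8 ± 8.68 TPM. In all, 11 members were lower by over 1.5-fold on that scale, among them Epha5 at 17.7 ± 0.665 TPM, Epha7 at 20.9 ± 3.52 TPM and Robo3 at 29.5 ± 1.29 TPM. Ephrin-B ligands moved little, at 101.2 ± 3.20 TPM beside 102.9 ± 5.04 TPM.

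Some of the orders given above turned with that choice. Slit2 exceeded Ntn1 by a ratio of 1.79 ± 0.265 over all transcripts, and stood at 0.758 ± 0.0706 of Ntn1 over complete coding transcripts. Robo2 exceeded Robo1 by a ratio of 1.95 ± 0.140 over all transcripts and stood at 0.910 ± 0.0237 of it over complete coding ones. That turn hangs on Robo2-201, at 4.98 and 6.33 TPM, which was left out as incomplete. The annotation used for transcript classes holds it at 886 bases, but its deposited level was estimated on a model of 4764 bases. Counted as complete coding, it would keep Robo2 above Robo1 in each library. Slit1, at 22.7 ± 0.948 TPM in complete coding transcripts, was then the highest Slit, ahead of Slit2 at 16.3 ± 0.573 TPM and Slit3 at 4.36 ± 0.339 TPM. Unc5c, at 6.41 and 7.05 TPM, then lay under Unc5a, at 6.75 and 7.45 TPM, in each library, though their ranges overlapped. Dcc over Neo1 kept its direction at 1.05 ± 0.0382, as did Efnb3 over Efnb2 at 2.80 ± 0.0717 and Robo3 over Robo4 at 7.51 ± 1.35. Efnb3 at 52.98 ± 2.61 TPM and Efna3 at 52.8 ± 4.67 TPM then stood side by side.

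**Figure D2:**
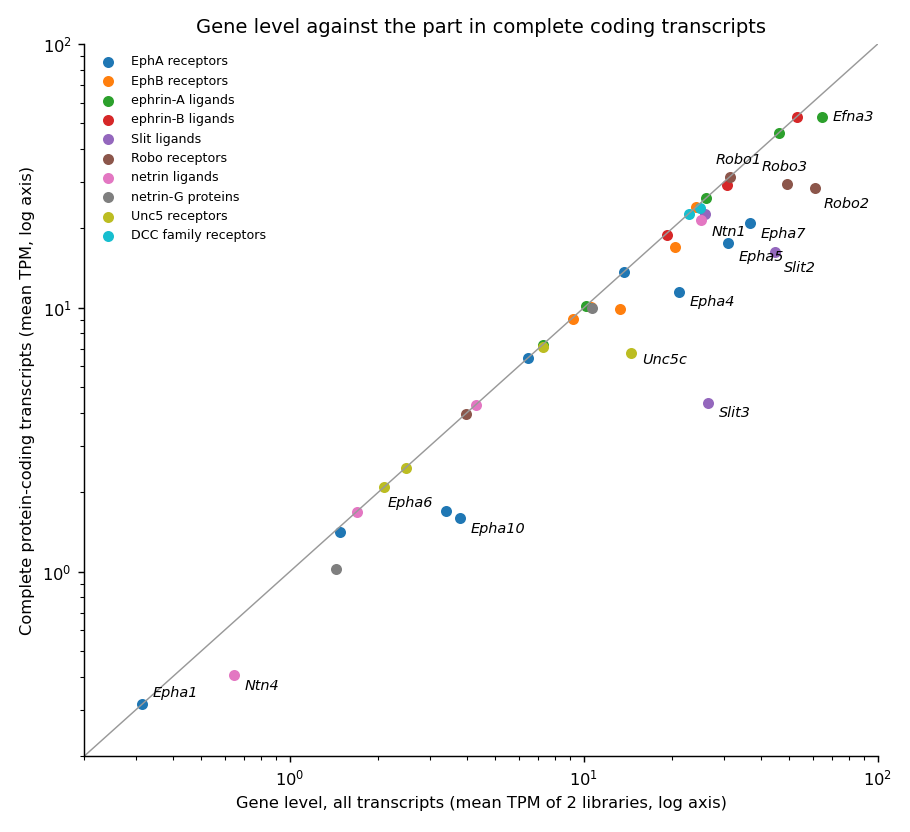
Mean TPM over all transcripts (horizontal, log axis) against mean TPM in complete protein-coding transcripts (vertical, log axis) for the 41 members, coloured by family; the line marks equality. Most genes lie on the line, while Slit3, Slit2, Robo2, Unc5c and several EphA receptors lie under it, with Slit3 the farthest.

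The transcripts behind this differed from gene to gene. Slit3 had 79.8% and 81.5% of its TPM in Slit3-202, a processed transcript of 1218 nt, and 17.6% and 15.6% in the coding Slit3-201. In estimated reads, which are not divided by length, Slit3-201 held 48.2 ± 2.5% of the gene. Slit2 was split between the coding Slit2-202, at 28.22% and 25.97%, and Slit2-207, which retains an intron, at 25.1% and 29.1%, and the 2 changed places as leading transcript between the libraries. In Slit2 a further 23.7% and 23.0% of TPM went to the short retained-intron model Slit2-209 on only 65.6 and 45.0 reads. Robo2 was led by Robo2-209, a retained-intron model, at 26.3% in both libraries, with the coding Robo2-202 at 22.8% and 24.1% and Robo2-203 at 22.4% and 24.1%. In Unc5c the coding Unc5c-202 led with 41.04% and 43.00%, and the 357 nt Unc5c-206 followed with 37.5% and 36.6% on 30.8 and 20.1 reads.

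Several Eph receptors also had no transcript at 50% in both libraries. Epha5 had the retained-intron model Epha5-207 at 39.7% and 36.2% and the coding Epha5-204 at 33.5% and 39.5%. Epha10 had Epha10-202, whose annotated coding sequence is incomplete, at 51.5% and 49.2%. Epha6-201 held 54.6% and 45.9% of Epha6, and Ephb2-202 held 41.6% and 46.3% of Ephb2. Epha4 could not be divided: the coding Epha4-201 had 19.7% in replicate 1 and 86.9% in replicate 2, while Epha4-205, annotated for nonsense-mediated decay with an equally long coding sequence, had 57.8% and 0.01%. The deposited posterior SD of these Epha4 estimates was 401 to 454 reads, and in replicate 1 Epha4-201 itself had 560 reads. The gene level of Epha4 does not depend on that division, but its complete coding level (3.98 and 19.0 TPM) does. With it, the EphA share of complete coding Eph receptor TPM was 47.2% in replicate 1 and 55.7% in replicate 2, so which class led was not the same in the libraries.

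Robo3 is known for a pair of forms that differ at the end of the protein, made by splicing or keeping intron 26, which commissural axons use before and after crossing. Robo3-202, with the intron spliced, led at 61.5% and 58.6%. Robo3-206, which retains a different intron, had 21.8% and 23.0%. Intron 26 was kept in Robo3-203, at 10.6% and 9.38%, and in Robo3-205, at 4.89% and 8.24%, whose reading frame ends inside it. Of TPM in Robo3 transcripts that span the intron, the retained share was 15.7% in replicate 1 and 17.7% in replicate 2. In estimated reads, which are not divided by length, the retained share was lower in each library. Robo3-203, a retained-intron model of 2226 nt with no coding sequence, had 253 and 139 reads. Robo3-202, of 4714 nt, had 3170 and 1888 reads. Robo3-205 rested on 268 and 282 reads with a posterior SD of 64.0 and 56.2 reads. The intron is 405 bases long, at chr9:37416921-37417325 on the minus strand of GRCm38. The junction is shown because it separates the forms. Both runs are 5′ to 3′ from the GENCODE transcripts and start with the last 21 bases of exon 26 in lower case. Capitals mark the first bases of exon 27 in the spliced form, and intron 26 up to and including the stop codon in the retained form.
Robo3-202, intron 26 spliced: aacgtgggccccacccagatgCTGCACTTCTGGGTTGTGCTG
Robo3-205, intron 26 kept: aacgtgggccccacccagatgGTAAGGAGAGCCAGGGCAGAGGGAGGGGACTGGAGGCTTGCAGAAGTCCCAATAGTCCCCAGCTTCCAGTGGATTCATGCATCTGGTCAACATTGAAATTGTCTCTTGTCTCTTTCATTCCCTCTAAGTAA
After the shared 21 bases the frame of Robo3-205 runs 128 bases into the intron before its stop codon, and the whole coding sequence is 4035 bases in place of 4206. Robo3-205 is annotated as a target of nonsense-mediated decay.

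Dcc was mostly 1 transcript. Dcc-202 held 82.8% and 82.2% of its TPM and Dcc-201, whose coding sequence is 60 bases (20 codons) shorter, 11.7% and 15.0%. Long and short DCC forms are known to be chosen by NOVA splicing factors. The short form was 13.9 ± 2.2% of the 2 together. Its 286 and 277 reads carried a posterior SD of 128 and 90.2 reads. A retained-intron transcript, Dcc-203, took 5.49% and 2.77%.

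In Unc5a the forms differ by exon 6, which encodes one of the thrombospondin repeats in the outer part of the receptor. Unc5a-202, which skips the exon, led with 65.2% and 63.2%, and Unc5a-201, which includes it, had 34.8% and 32.1%. Inclusion was 34.3 ± 0.79% of the 2 forms by TPM and 35.2 ± 0.83% by reads, and each library's estimate of Unc5a-201 (207 and 140 reads) had a posterior SD of 39.6 and 45.3 reads. The exon is at chr13:54997193-54997360 on the plus strand of GRCm38 and its 168 bases (56 codons) keep the reading frame. Capitals mark exon 6 in the first run and the first bases of the next exon in the second.
Unc5a-201, exon 6 included: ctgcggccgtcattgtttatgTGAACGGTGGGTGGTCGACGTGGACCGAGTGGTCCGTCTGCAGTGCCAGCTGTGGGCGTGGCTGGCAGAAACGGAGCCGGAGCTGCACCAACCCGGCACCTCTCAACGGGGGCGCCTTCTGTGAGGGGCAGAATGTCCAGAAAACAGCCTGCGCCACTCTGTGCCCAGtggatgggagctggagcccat
Unc5a-202, exon 6 skipped: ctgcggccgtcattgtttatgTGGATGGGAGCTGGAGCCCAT
The runs share the 21 bases before the exon, and the bases after it in Unc5a-201 are those that follow directly in Unc5a-202.

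Epha7 had a short form alongside the full receptor. Epha7-201, with 998 codons, held 28.9% and 31.5% of the gene's TPM. Epha7-202, with 610 codons, held 19.9% and 21.6%, and truncated EphA7 lacking the kinase domain is known to turn repulsion into adhesion in the closing neural tube. The non-coding Epha7-208 held 35.2% and 23.8%, the highest share in replicate 1. Over Epha7-201, Epha7-202 and Epha7-203 the short form was 37.0 ± 0.96% by TPM and 19.8 ± 0.66% by reads. The forms share 9 exons up to the point shown. Capitals mark the first bases of exon 10 in the long form and the last exon up to and including the stop codon in the short form.
Epha7-201, long form: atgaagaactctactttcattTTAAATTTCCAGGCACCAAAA
Epha7-202, short form: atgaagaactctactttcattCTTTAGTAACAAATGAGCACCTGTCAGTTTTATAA
Exon 10 of the long form starts at chr4:28947528 and the last exon of the short form at chr4:28946219, both on the plus strand of GRCm38. In the short form the frame runs 32 bases into the last exon before the stop codon.

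**Figure D3:**
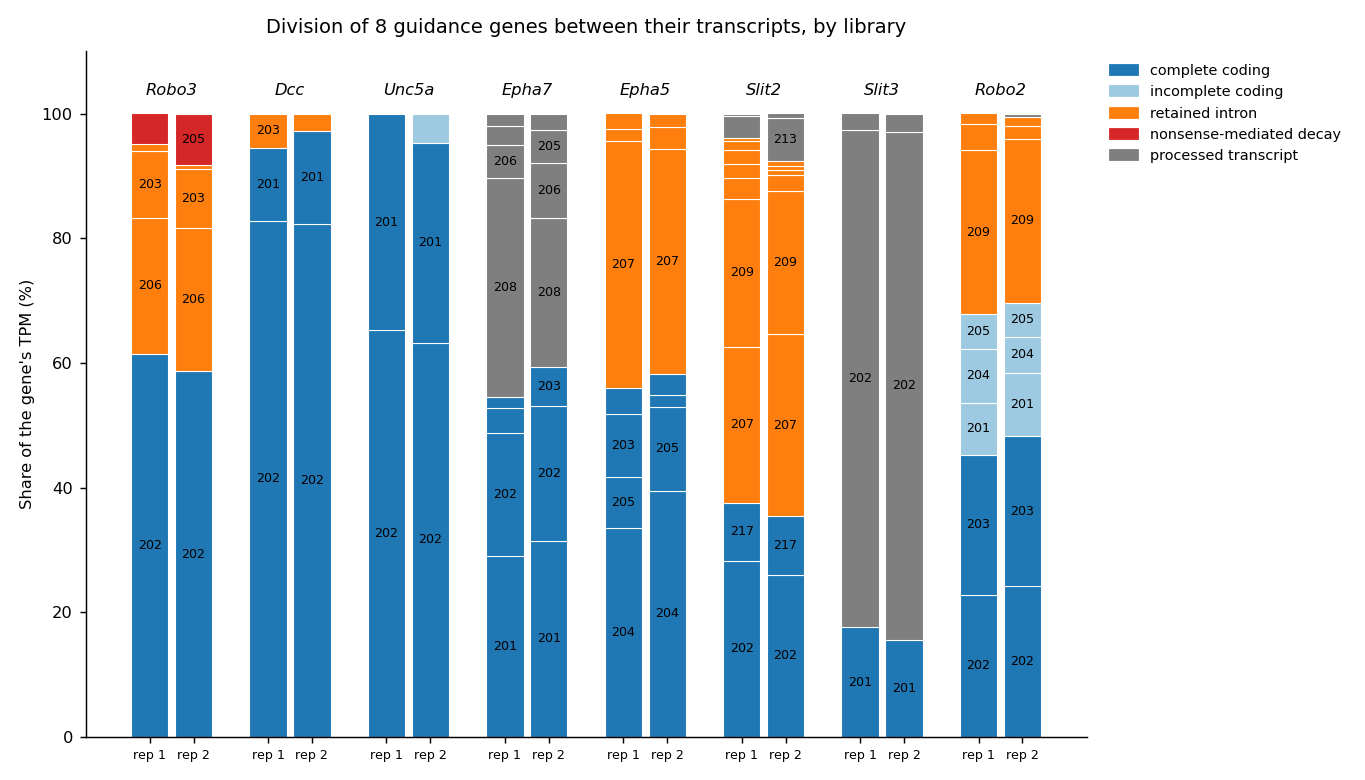
Share of each gene's TPM (vertical axis, %) given to its transcripts in each library, for 8 members, with bars stacked to 100 and transcript numbers printed in parts of 5% or more; colours give the annotated class. Robo3, Dcc and Unc5a keep a coding transcript at 58.6% or more in both libraries, while the grey transcript 202 of Slit3 takes 79.8% or more.

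To see how far single members differed between the replicates, rounded estimated reads were put to an exact binomial test (two-sided) after TMM scaling. The test measures 1 library against the other beyond counting noise and compares no conditions. A gene was called when its adjusted p was under 0.05 and its ratio 2-fold or more, and 2.15% of the 17428 genes with a mean of 10 reads or more were called. Of the 41 members 1 was called. Epha1 had 12 reads in replicate 1 and 21 in replicate 2, a log2 ratio of 1.38 with a counting SE of 0.513 (adjusted p = 0.0417, exact binomial test). It was not called without the minimum of 10 reads, nor by edgeR's exact test with a common dispersion (adjusted p = 0.432, unadjusted p = 0.0145). That dispersion was estimated from the same 2 libraries taken as replicates, so it takes in the differences being tested, and the edgeR values do not show that the libraries were alike. Epha1 shares 236 exon bases with Zyx on the opposite strand, at 39.3 and 39.6 TPM, and the handling of strand is not given in the sources used here. Among epidermis markers, 5 of 8 were detected in both libraries, and Krt14 had 1.18 and 5.49 TPM, Krt5 0.80 and 3.40 TPM and Trp63 0.16 and 0.64 TPM. Their part in the Epha1 difference was not tested.

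By adjusted p alone 15 members differed, 10 of them higher in replicate 2, where 24.2% of all genes tested did. After Epha1, the largest ratio among them was that of Epha3, with 1415 and 1288 reads and a log2 ratio of 0.46 with a counting SE of 0.056 (adjusted p = 9.35e-15, exact binomial test), but an adjusted p of 0.497 by edgeR's exact test. The skeletal muscle list was higher in the same library, and its part in the Epha3 difference was not tested. The same edgeR test put no member under 0.05 after adjustment and 2 members under it before, against 16 for the binomial test before adjustment. The others higher in replicate 2 were Ephb4, Slit3, Epha4, Dcc, Epha7, Robo1, Neo1 and Robo2, with log2 ratios from 0.24 for Ephb4 to 0.075 for Robo2. Those lower in replicate 2 were Epha8, Efna3, Ephb1, Ntn1 and Slit1, with ratios from -0.23 for Epha8 to -0.14 for Slit1. The sensory ganglion list also summed to less in replicate 2, as did the motor neuron list, at 485.3 and 389.8 TPM. The median of the motor neuron list was 16.00 and 17.28 TPM, and Slc18a3, Chat, Slc5a7 and Mnx1 were higher in replicate 2. Prph, Isl1, Isl2 and Lhx3 were lower. The part of both lists in these differences was not tested. The median log2 ratio was 0.041 over the members and 0.000 over all genes tested. By scaled reads 22 of 41 members were higher in replicate 2. In TPM 28 were higher in replicate 2, as were 62.7% of detected protein-coding genes, and the median coefficient of variation of the members was 7.47%.

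**Figure D4:**
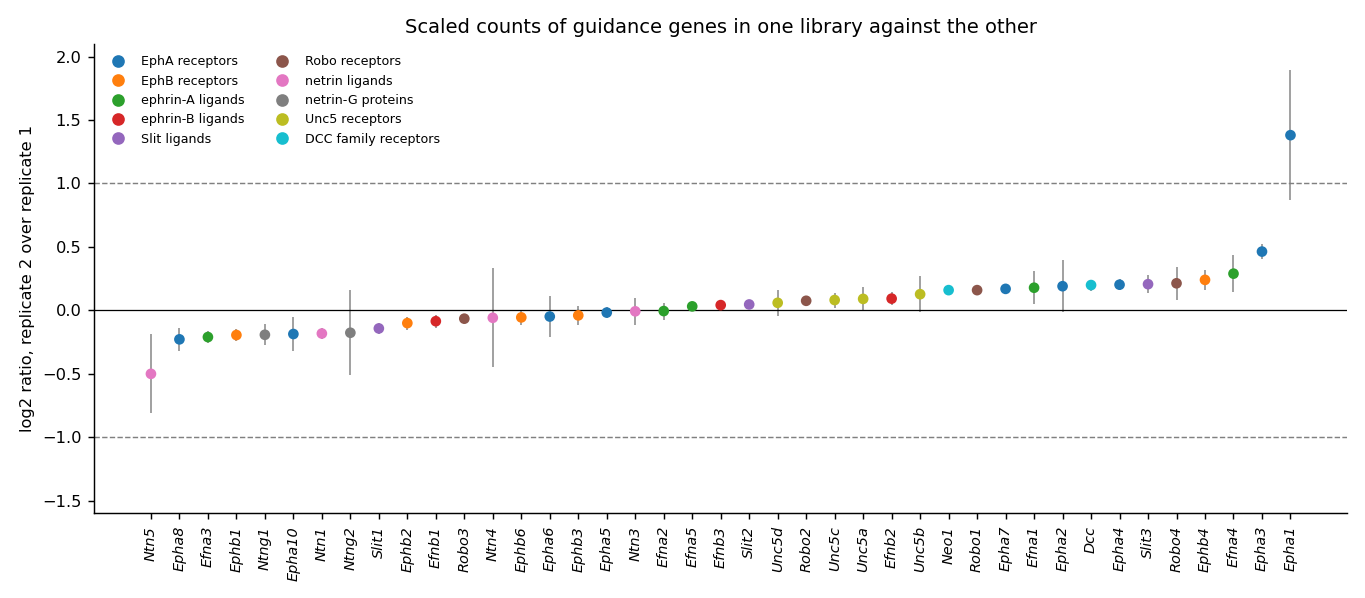
Log2 ratio of scaled reads, replicate 2 over replicate 1, for the 41 members in rising order and coloured by family; bars are 1 counting SE and the dashed lines mark 2-fold. All members but Epha1 lie within the dashed lines, and the widest bars belong to the genes with fewest reads, Epha1, Ntn4, Ntng2 and Ntn5.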

How the data were processed

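The deposited tables give, per the file headers, expected counts (estimated reads, not whole numbers), TPM, FPKM and the isoform percent, which is a transcript's share of its gene's TPM, with posterior means and SDs. The authors' build was mm10 and their annotation GENCODE M4, per the labels and the notes with the files. For the aligner, the quantifier and the strand setting, the entry is: not given in the sources used here. Symbols, transcript classes, coordinates and sequences came from GENCODE M21 (GRCm38, which is mm10). Of the members, 40 matched by gene identifier and Ntn3 by its transcript. A complete coding transcript is a protein-coding one with no tag for a missing start or end in M21. Its level is the one estimated on the deposited model, and 143 of 175 member transcripts had the same length in both annotations. Members and lists were chosen with earlier results of these data known. The text names all members, the 2 highest and the lowest of each list, and leading transcripts that differ, miss 50% or are not complete coding. 1 marker gene is not reported here. Some further partners and markers were chosen after their values were seen. Deposited FPKM values served only in an alternative.

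Expected counts were rounded for tests. Genes with a mean of 10 or more were compared between libraries by an exact binomial test, two-sided by doubling, on TMM-scaled totals (edgeR 4.0.16, R 4.3.3), with Benjamini-Hochberg adjustment, and by edgeR's exact test with a common dispersion estimated from the same 2 libraries. Log2 ratios had 0.5 added to each rounded count. DESeq2 1.42.0 gave other size factors. SDs rest on 2 libraries, labelled as separate biosamples. Binomial p-values set 1 library against the other over counting noise alone and measure no spread among samples. No p-value here reaches beyond these samples. Counting SEs cover counting error only. Other steps used Python 3.11.15, pandas 2.3.3, NumPy 2.4.6, SciPy 1.17.1 and matplotlib 3.10.9.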

Additional observations from a re-analysis of the deposited data

How the results depend on the processing

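Only 2 libraries of 1 group were measured, so no value between genes carries a test, and reads given to members sharing exons or to near-identical transcripts are uncertain. The count of members called between libraries stayed at 1 with DESeq2 size factors, with unscaled totals and at a 1.5-fold minimum. It was 0 without the count minimum and 0 by edgeR's exact test, whose dispersion came from the same 2 libraries. The members detected were 40 at 0.5 TPM, 35 at 2 TPM, 36 at 1 FPKM and 38 over complete coding transcripts, beside 39, and 73 of 74 pathway genes were detected under every alternative run.

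Over expected counts, which favour long transcripts, the ephrin-A share was 53.0%, the Slit2 share 47.6%, the Robo3 share 26.4%, the Ntn1 share 83.4%, the Neo1 share 57.1%, the Robo3-202 share 69.1% and the Dcc-202 share 84.2%. Neo1 thus exceeded Dcc in reads and fell under it in TPM. By posterior mean TPM, Slit2 had 47.0%, Ntn1 78.4% and Dcc-202 81.1%. Over complete coding transcripts, an alternative chosen after seeing the data, the EphA share was 51.4%, ephrin-A 58.4%, Slit2 37.6%, Robo3 31.7%, Ntn1 77.1% and Neo1 48.9%. On that scale 18 of 41 member levels moved by more than 1 SD. All moved downward, which the choice fixes, since part of a gene's transcripts cannot exceed the whole. Rescaling TPM to mouse genes alone raised levels by a median factor of 1.15. Since there are 2 libraries, leaving out one gives the other's values, as printed for each member.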

Other observations

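Marker lists of the cell types that could carry these guidance genes gave the following levels (mean ± SD, n = 2). Neuronal genes were high, led by Tubb3 at 1245 and 1175 TPM and Nefl at 870.0 ± 25.3 TPM, with Elavl3 the lowest of the list at 44.4 ± 2.26 TPM. Progenitor genes ran from Fabp7 at 1997 ± 89.7 TPM and Vim at 733.7 ± 12.8 TPM to Sox1 at 0.79 ± 0.0990 TPM. All 8 motor neuron genes were detected, from Prph at 233.2 ± 49.5 TPM and Isl1 at 114.1 ± 18.4 TPM to Mnx1 at 2.53 ± 0.332 TPM. Prph and Isl1 are also genes of sensory ganglia, in whose own list Ntrk2 had 34.0 ± 0.735 TPM and Runx3, the lowest, 1.39 ± 0.113 TPM. The muscle and epidermis lists summed to more in replicate 2, and the motor neuron and sensory ganglion lists to less.

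Mesenchymal genes were led by the collagens Col3a1 at 321.6 ± 8.90 TPM and Col1a1 at 148.7 ± 12.2 TPM, with Foxc1 at 2.86 ± 0.219 TPM. Muscle genes were led by Actc1 at 78.2 ± 4.12 TPM and Acta1 at 32.6 ± 18.5 TPM, with Myf5 the lowest at 1.24 ± 1.24 TPM. In the epidermis list Perp had 4.96 ± 0.877 TPM, Krt14 3.34 ± 3.05 TPM and Trp63 0.40 ± 0.339 TPM. Forebrain genes stayed low, with Lhx6 at 0.80 ± 0.212 TPM, Dlx1 at 0.80 ± 0.304 TPM and Rax listed at 0 in both libraries. Of 8 genes of midbrain and anterior hindbrain 5 were detected, led by Pax8 at 42.1 ± 3.14 TPM and Gbx2 at 33.3 ± 1.30 TPM, which the spinal cord also expresses, with En2 listed at 0 in both libraries and Fgf8 at 0.04 and 0 TPM.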
